A study of Mus musculus with 3 samples.

Results

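The genes followed here belong to the stretch and repair response of striated muscle, namely the muscle ankyrin repeat proteins Ankrd1, Ankrd2 and Ankrd23, the Xin proteins Xirp1 and Xirp2, the LIM domain proteins Csrp3, Fhl1, Fhl3 and Nrap, and the ferlin Dysf. They were chosen by gene symbol, with earlier results of these data known, and all 10 were found, each as 1 row among 25206 genes. RNA of the tibialis anterior of male CD2F1 mice (CD2 in the strain label) was measured on 3 Affymetrix Mouse Gene ST arrays, 1 for each group, and every array held RNA pooled from 3 mice. The Sham group had received AAV9-scrambled-shRNA and PBS in place of tumour cells. The C26 scrambled-shRNA group, called the tumour group below, had the same vector and 500000 colon 26 adenocarcinoma cells, a mouse tumour that causes cachexia, under the skin of each flank. The C26 FoxP1-shRNA group, called the knockdown group, had the same tumour and AAV9-FoxP1-shRNA. The vector was injected into the muscle at 10 weeks of age, at 1e+11 vector genomes and 2 weeks before the tumour cells, and muscles were taken 26 days after the cells were given. The scrambled vector carried a GFP marker and the FoxP1 vector mCherry, so that marker and knockdown cannot be told apart, and whole muscle was measured, not its transduced fibres alone. A Sham group with FoxP1-shRNA was not analysed here. Values are log2 expression values made by Robust Multiarray Average (RMA), in which a difference of 1 is a 2-fold difference. With 1 pooled array in each group no value has an error and no difference could be tested against the spread between mice, so that a fixed size of 2-fold was counted.

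The genes are part of the systems with which a muscle fibre senses and withstands load. Muscle ankyrin repeat proteins bind the I-band region of titin, the elastic filament of the sarcomere, and also enter the nucleus, where they act with transcription factors. Csrp3, also called muscle LIM protein, lies at the Z-disc and takes part in the response to stretch. Xin proteins bind and stabilize actin filaments at the attachments of myofibrils to the membrane and at sites of damage, and Dysf drives the calcium-dependent fusion of vesicles that reseals a torn sarcolemma. Several of these genes are best known for being induced in limb muscle by stretch, eccentric contraction, injury or denervation.

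Foxp1, the gene targeted by the shRNA, read 6.41 on the Sham array, 7.31 on the tumour array and 6.52 on the knockdown array, on the log2 scale. It was thus 1.73-fold lower on the knockdown array than on the tumour array, short of the 2-fold size counted here. The label names the FoxP1-shRNA vector and gives no level of Foxp1. The medians of all genes were 4.06, 4.05 and 3.99, in the same order, and the highest values 12.39, 12.45 and 12.25. Myh4, the myosin of the fast fibres that make up most of this muscle, read 12.39, 12.08 and 12.16.

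Ankrd1, Ankrd2, Xirp1 and Csrp3, 4 of the 10 genes, were higher by 2-fold or more on the tumour array than on the Sham array, and the same 4 were lower by 2-fold or more on the knockdown array than on the tumour array. The other 6 stayed within 2-fold in all 3 comparisons. For the tumour group against Sham, 3.34% of all genes were 2-fold higher and 4.33% were 2-fold lower, and no member was among the latter. For the knockdown group against the tumour group, 1.06% of all genes were 2-fold lower, and 1.44% were 2-fold higher, none of them a member. Both steps together were met by 4 of 10 members and by 0.813% of all genes. Because the members were chosen with earlier results of these data known, this contrast is not independent evidence. The comparisons share the tumour array, so that a high value on that array alone would give both steps. Of the 843 genes that passed the first step upwards, 205 (24.3%) passed the second downwards. Against Sham, 1 member (Ankrd2) was 2-fold higher and none 2-fold lower on the knockdown array, beside 1.61% and 2.17% of all genes. When the arrays were centred on reference genes instead, 1103 genes were 2-fold higher and 894 lower in the tumour group against Sham, in place of 843 and 1092, and 638 higher and 370 lower in the knockdown group against Sham, in place of 405 and 548, and the members past 2-fold did not differ in number. The reference gene B2m was itself more than 2-fold below Sham on both of the other arrays. The median log2 difference over the 10 members was 0.24 for the tumour group against Sham and -0.06 for the knockdown group against the tumour group, beside 0.03 and -0.03 over all genes. In whole-muscle RNA, fewer cells of a type and less RNA per cell cannot be told apart.

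**Figure D1:**
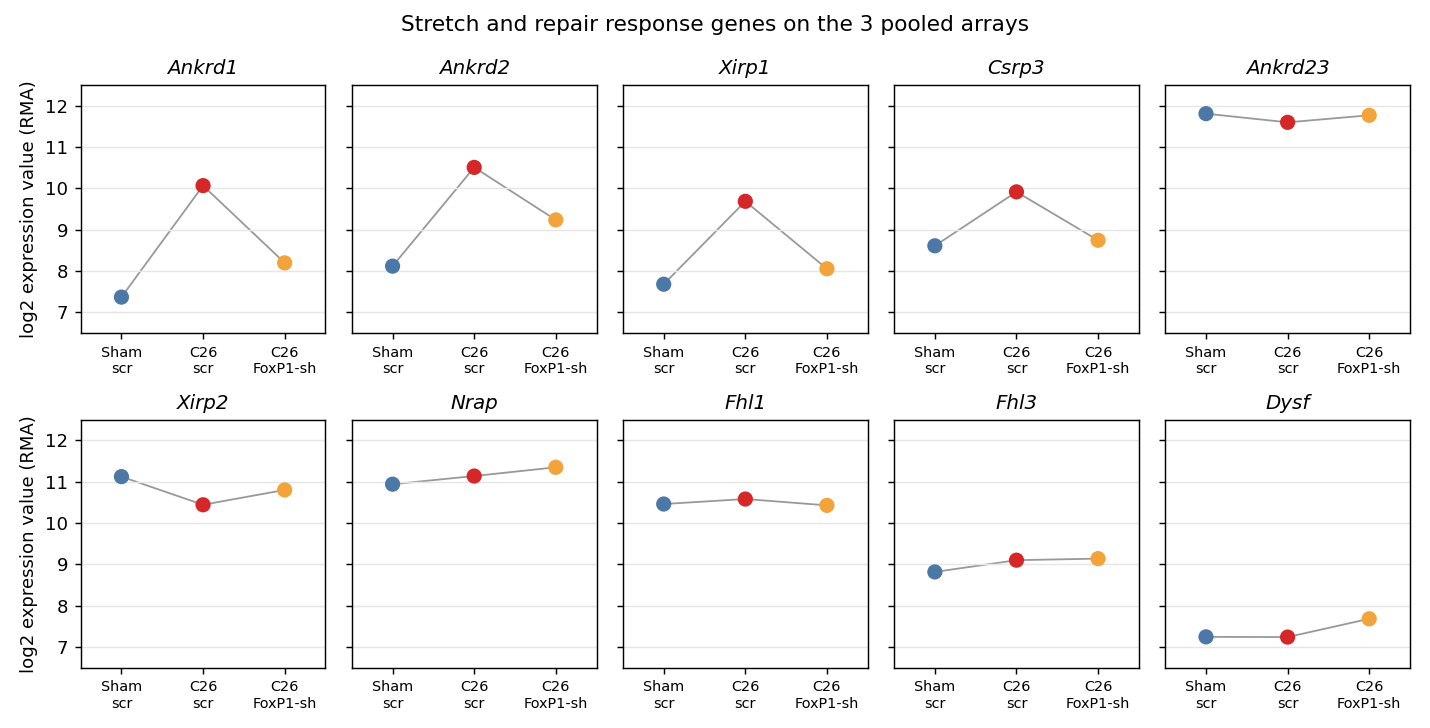
Log2 expression value (RMA) of each of the 10 genes on the arrays of the Sham scrambled-shRNA, C26 scrambled-shRNA and C26 FoxP1-shRNA groups. Each point is 1 array of RNA pooled from 3 mice, and there are no error bars because each group has 1 array. Ankrd1, Ankrd2, Xirp1 and Csrp3 peak on the C26 scrambled-shRNA array, and the ranges of the other 6 genes are at most 0.68.

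Promoters were taken from RefSeq on GRCm38.p6, as the 250 bases before each annotated start, read 5′ to 3′ on the strand of the gene, and 9 of the 10 genes had a window, 13 in all. They were searched on both strands for the MEF2 site, the CArG box of serum response factor, the MCAT element of TEAD factors (CATTCC), the forkhead word TGTTTAC and the E-box (CANNTG). The windows shown are those of Ankrd1, Ankrd2 and Csrp3, which has 2 annotated starts, and that of Xirp2. The first 3 genes were high on the tumour array and lower on the knockdown array, and Xirp2 was lowest on the tumour array. Xirp1, also high on the tumour array, was the gene without a window. Ankrd23 and Dysf were lowest on the tumour array too, Dysf with a log2 difference of only -0.0053 against Sham. Their windows held no MEF2 word and are not shown. Capitals mark matches to the MEF2, CArG, MCAT or forkhead word on either strand, and the marked matches do not overlap.
Ankrd1 (chr19:36119845-36120094, minus strand): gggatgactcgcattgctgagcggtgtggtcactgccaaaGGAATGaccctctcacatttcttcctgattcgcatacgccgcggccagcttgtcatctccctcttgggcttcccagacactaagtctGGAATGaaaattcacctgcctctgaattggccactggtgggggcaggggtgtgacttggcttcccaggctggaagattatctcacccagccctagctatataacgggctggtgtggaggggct
Ankrd2 (chr19:42035777-42036026, plus strand): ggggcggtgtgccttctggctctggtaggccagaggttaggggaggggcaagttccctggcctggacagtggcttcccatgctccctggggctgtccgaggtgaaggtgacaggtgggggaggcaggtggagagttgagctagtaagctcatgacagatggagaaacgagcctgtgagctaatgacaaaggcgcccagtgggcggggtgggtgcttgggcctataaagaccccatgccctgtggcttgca
Csrp3 upstream start (chr7:48848052-48848301, minus strand): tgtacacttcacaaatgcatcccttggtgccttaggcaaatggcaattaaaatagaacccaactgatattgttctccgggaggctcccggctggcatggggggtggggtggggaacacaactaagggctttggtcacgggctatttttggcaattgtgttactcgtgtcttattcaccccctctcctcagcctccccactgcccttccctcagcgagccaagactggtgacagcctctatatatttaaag
Csrp3 downstream start (chr7:48843672-48843921, minus strand): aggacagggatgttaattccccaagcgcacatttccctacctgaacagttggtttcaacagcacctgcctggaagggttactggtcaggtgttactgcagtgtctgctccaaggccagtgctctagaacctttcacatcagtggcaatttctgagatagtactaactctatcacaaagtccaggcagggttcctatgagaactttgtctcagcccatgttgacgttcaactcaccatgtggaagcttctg
Xirp2 (chr2:67445752-67446001, plus strand): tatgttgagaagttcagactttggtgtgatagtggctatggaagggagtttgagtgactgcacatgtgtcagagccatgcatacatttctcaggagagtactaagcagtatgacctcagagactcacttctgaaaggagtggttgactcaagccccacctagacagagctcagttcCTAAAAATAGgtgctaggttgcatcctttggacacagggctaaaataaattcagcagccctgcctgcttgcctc

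The Ankrd1 window held 2 MCAT matches, beginning 210 and 123 bases before the start, whereas the windows of Ankrd2 and Csrp3 held none of the 4 marked words. MCAT was present in 12.6% of all 32851 windows of this length. The other member window with MCAT belonged to 1 of the 2 starts of Ankrd23. The Xirp2 window held 1 MEF2 match, beginning 74 bases before the start, a word present in 2.92% of all windows. Single matches were also found to the CArG box in 1 of the 2 Fhl1 windows (1.47% of all windows) and to the forkhead word in the other Ankrd23 window (3.17% of all windows). The remaining 8 windows held none of these words, and an E-box was present in 9 of 13 windows, beside 66.2% of all windows. A match describes letters and not binding, and a missing word says nothing of sites outside the window.

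Ankrd1, or cardiac ankyrin repeat protein, is a titin-binding protein and transcriptional cofactor. Its log2 value was 7.37 for Sham, 10.07 for the tumour group and 8.20 for the knockdown group. The tumour array was the high one, 6.48-fold above Sham, which placed Ankrd1 at rank 49 from the top of 25206 genes. The knockdown array was 3.65-fold below it, at rank 33 from the bottom, and 1.78-fold above Sham. On the log2 scale it lay 69.3% of the way back from the tumour value to the Sham value.

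Ankrd2, a relative of Ankrd1 found mainly in slow fibres, is induced by stretch. It read 8.12 for Sham, 10.51 for the tumour group and 9.24 for the knockdown group on the log2 scale. The tumour array stood 5.24-fold above Sham, at rank 78 from the top, and the knockdown array 2.41-fold below the tumour array, at rank 128 from the bottom. Ankrd2 remained the farthest of the 4 genes from Sham under knockdown, at 2.17-fold, with 53.2% of the way covered. Ankrd23, the third gene of the family, is linked to energy metabolism as well as to stretch, and its order of arrays was unlike that of the other ankyrin repeat genes. Its log2 values were 11.81 for Sham, 11.60 for the tumour group and 11.77 for the knockdown group, so that the tumour array was the low one, by 1.16-fold against Sham.

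Xirp1, which encodes Xin, binds actin and accumulates in damaged and regenerating fibres. Its log2 value was 7.68 for Sham, 9.69 for the tumour group and 8.05 for the knockdown group. The first difference ranked 143 from the top of all genes and the second 49 from the bottom, and the knockdown array stood 1.30-fold above Sham, 81.4% of the way back. Xirp2, its relative and a known target of MEF2A, had the opposite order. It read 11.12 for Sham, 10.44 for the tumour group and 10.80 for the knockdown group on the log2 scale. The tumour array was 1.60-fold below Sham, the widest gap among the 6 genes within 2-fold, and the knockdown array was 1.28-fold above the tumour array.

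Csrp3, muscle LIM protein, read 8.61 for Sham, 9.91 for the tumour group and 8.74 for the knockdown group on the log2 scale. The tumour array was 2.47-fold above Sham, at rank 461 from the top, and the knockdown array 2.25-fold below the tumour array, at rank 160 from the bottom. At 1.10-fold above Sham, Csrp3 under knockdown was the closest of the 4 to its Sham value, 89.7% of the way back. Nrap, a scaffold of LIM and nebulin-like domains that takes part in myofibril assembly, had log2 values of 10.94, 11.14 and 11.35 for Sham, tumour and knockdown. Its knockdown array was the high one, 1.33-fold above Sham. Fhl1, a protein built of LIM domains whose mutation causes myopathies in humans, had log2 values of 10.46, 10.58 and 10.43 in that order, the narrowest range of the 10 genes. Fhl3, a relative of Fhl1 that binds actin, read 8.82, 9.10 and 9.14 in that order, and its tumour array was 1.22-fold above Sham.

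Dysf, the repair protein lost in dysferlinopathies, had nearly equal log2 values for Sham and the tumour group, 7.25 and 7.24. Its knockdown array read 7.68, which is 0.44 above the tumour array on the log2 scale and 1.35-fold above Sham. Nrap, Fhl3 and Dysf, 3 of the 10 genes, were highest on the knockdown array, 5 (Fhl1 and the 4 past 2-fold) on the tumour array, and 2 (Ankrd23 and Xirp2) on the Sham array.

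**Figure D2:**
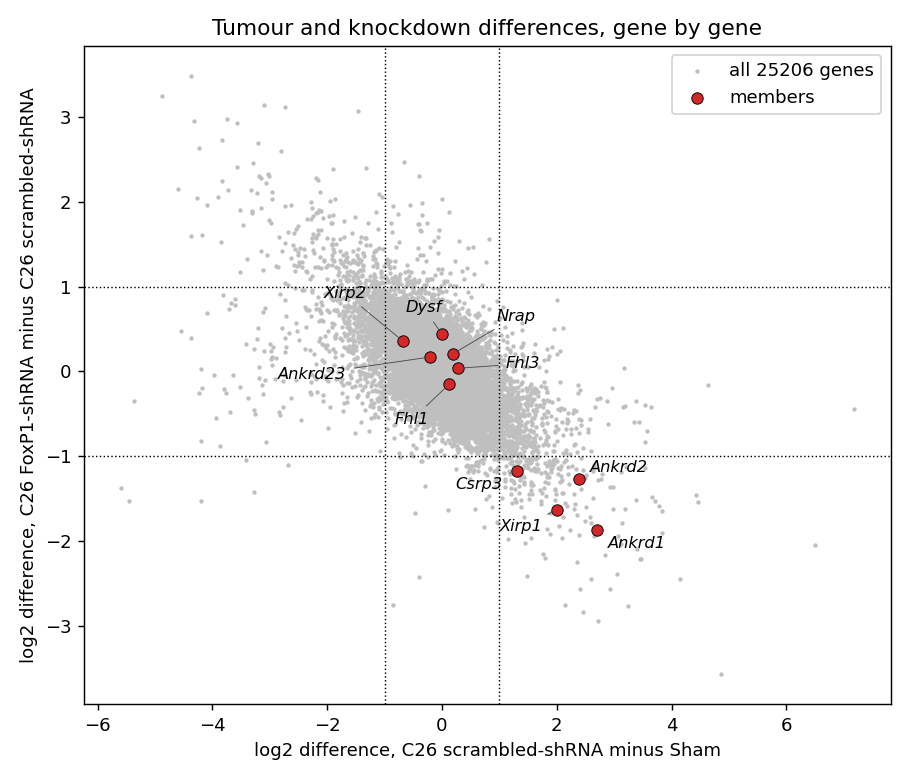
Log2 difference of C26 scrambled-shRNA minus Sham (horizontal axis) against that of C26 FoxP1-shRNA minus C26 scrambled-shRNA (vertical axis), for all 25206 genes (grey) and the 10 members (named), with lines at 2-fold. Both axes contain the C26 scrambled-shRNA array, with opposite sign. Of the members, 4 lie past 2-fold on both axes, at the lower right, and 6 lie in the central field.

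The likeness of a pair of genes was measured as the Euclidean distance between their log2 values over the 3 arrays, after each gene was centred on its own mean. Ankrd1 and Ankrd2 were 0.42 apart, Ankrd1 and Xirp1 0.50, Csrp3 and Xirp1 0.50, and Ankrd1 and Csrp3 0.98. Ankrd23 lay 2.11 from Ankrd1 and 1.84 from Ankrd2, and was nearer to Fhl1 (0.27), Xirp2 (0.33) and Dysf (0.34). Xirp1 and Xirp2 were 1.97 apart. Neither family therefore had 1 common pattern on these arrays. Ankrd23 and Xirp2, however, read 11.81 and 11.12 on the Sham array, where the highest value of any gene was 12.39. A rise as large as that of Ankrd1 or Xirp1 thus had little room to be read for them. Nrap and Fhl3, at 0.12, were the closest pair of members.

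For each of the 4 genes with a range of at least 1 on the log2 scale, the nearest others were sought among 12678 named genes that were above the array median on at least 1 array. Nearest to Ankrd1 were Bcl2l1 (0.08), which encodes the survival protein Bcl-xL, Gramd1b (0.08), a sterol transfer protein, and Slc25a34 (0.11), of the mitochondrial carrier family. Nearest to Ankrd2 were Irs2 (0.09), an adaptor of the insulin receptor, Arid5a (0.09), an RNA-binding protein, and Trp53inp1 (0.10), a target of p53. Nr4a3 (0.08), a nuclear receptor of the immediate early response, Cobll1 (0.08) and E030011O05Rik (0.12) were nearest to Xirp1. Mrgpre (0.04), Hacd3 (0.06) and Cd14 (0.06), a lipopolysaccharide co-receptor of myeloid cells, were nearest to Csrp3. With 3 arrays these distances describe these arrays only.

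Of 12 measured relatives of the members by family, such as the LIM proteins Fhl2, Csrp1 and Csrp2, the nebulin Neb and the ferlin Myof, none passed 2-fold in any of the 3 comparisons. Among them Fhl4, Nebl, Otof, Fer1l4 and Fer1l6 were below the array median on every array, so that they say little. Neb, at 11.99 on the Sham array, was close to the highest value of any gene there (12.39). Among 22 partners of titin and the Z-disc, 5 were 2-fold lower in the tumour group than in Sham and 1 was higher, and 4 were 2-fold higher and none lower in the knockdown group than in the tumour group. Myoz3, a calcineurin-binding Z-disc protein, was 7.04-fold below Sham on the tumour array, Nexn (nexilin, an actin-binding protein) 4.08-fold and Ldb3 (ZASP) 3.37-fold. On the knockdown array Nexn and Ldb3 stood 2.35-fold and 2.43-fold above the tumour array, whereas Myoz3 was still 3.74-fold below Sham. Flnc (filamin C), a partner of Xin proteins that is recruited to damaged sarcomeres, was the one of this list that was 2-fold higher on the tumour array. It read 9.35 for Sham, 10.75 for tumour and 10.05 for knockdown on the log2 scale, in the same order as Xirp1, and was 1.63-fold lower under knockdown. The medians of the list were -0.39 and 0.41 on the log2 scale, for tumour against Sham and for knockdown against tumour.

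Among 22 genes of sarcolemma repair other than Dysf, 4 were 2-fold below Sham on the tumour array and none 2-fold above it, and 3 of these 4 were 2-fold higher on the knockdown array than on the tumour array. Cav3, the caveolin of muscle and a partner of Dysf at the membrane, read 6.27 for Sham, 4.56 for tumour and 6.15 for knockdown on the log2 scale. Capn3, a muscle calpain that binds titin, was 2.09-fold below Sham on the tumour array, and its knockdown array was 2.16-fold above that. The corresponding folds for Smpd1, acid sphingomyelinase, were 2.19 and 2.08. Anxa5, an annexin that binds membrane phospholipids, was the fourth and read 7.99, 6.93 and 6.97, so that it was 2.03-fold below Sham under knockdown as well. Dysf had neither step. Trim72 (MG53), which nucleates the repair patch, read 8.37, 8.87 and 9.24 for Sham, tumour and knockdown, so that its knockdown array was the highest, as for Dysf.

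Among 15 genes of YAP-TEAD and serum response factor signalling, a known regulator of Ankrd1, 1 was 2-fold higher on the tumour array than in Sham (Ccn2, a secreted target of YAP, 2.21-fold) and 1 lower (Mrtfa, a coactivator of serum response factor, 3.59-fold). None passed 2-fold between the knockdown and tumour arrays. The medians of the list were 0.24 and 0.03 on the log2 scale.

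**Figure D3:**
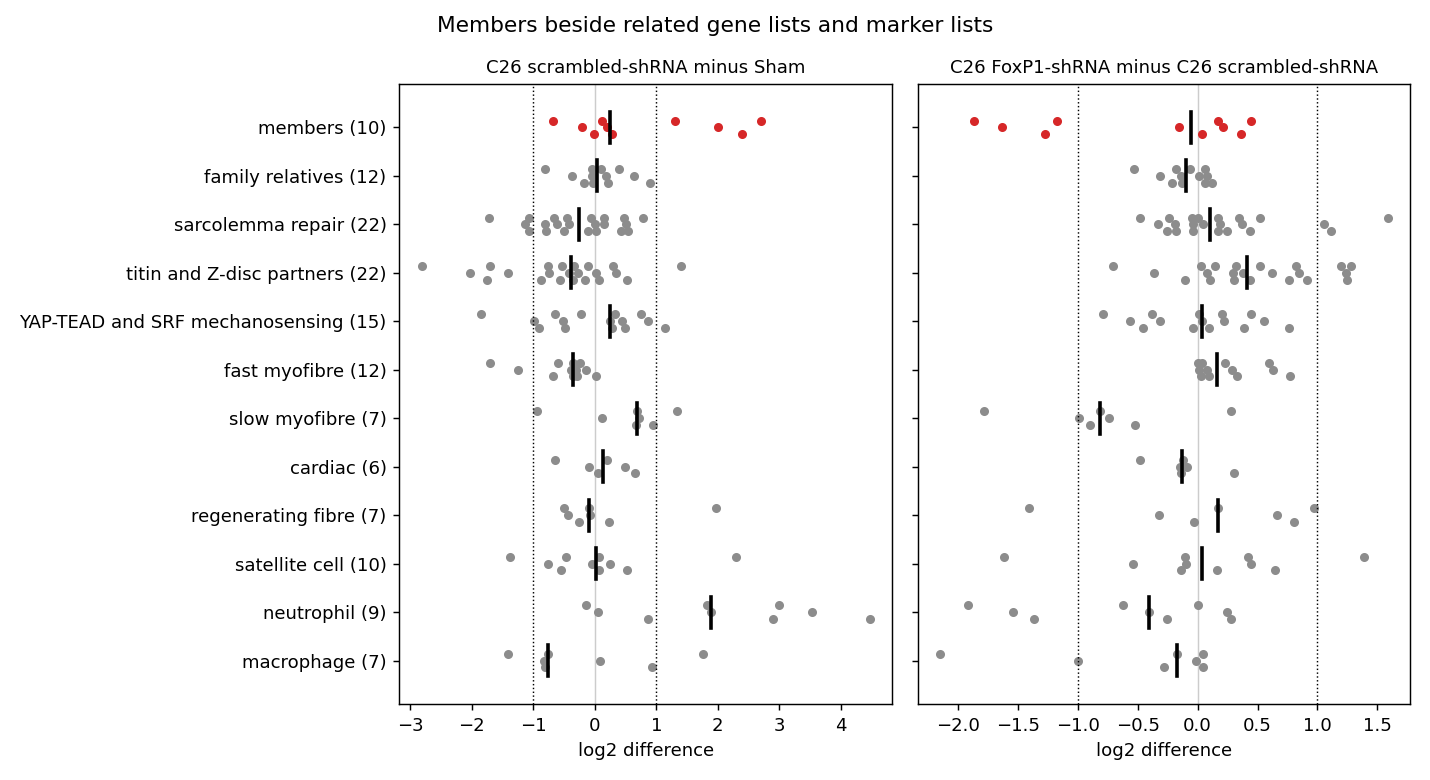
Log2 differences of the 10 members (red) and of the genes of related and marker lists (grey), with the number of measured genes in brackets, for C26 scrambled-shRNA minus Sham (left) and C26 FoxP1-shRNA minus C26 scrambled-shRNA (right). Each point is a gene, black bars are medians over the genes of a list, and dotted lines stand at 2-fold. The members split into 4 high and 6 central genes on the left and 4 low and 6 central genes on the right, and the slow myofibre list has medians of 0.68 and -0.82.

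Some markers of other fibre types and cells, though not whole lists, were also high on the tumour array, and their part in the values of the 4 genes was not tested. Of 7 slow fibre markers, 6 were above Sham on the tumour array and 6 were below the tumour array under knockdown, with Myl3 as the exception in both. The summed linear value of the 7 was 322 for Sham, 419 for tumour and 254 for knockdown. Atp2a2, the brightest of the 7 and so the largest part of the sum, read 7.53, 7.65 and 7.13 on the log2 scale. Myh7, the slow myosin, read 2.71, 4.06 and 3.31, below the array median on the Sham and knockdown arrays. Myl3 was below the array median on every array. Ankrd2 and Csrp3 are themselves more abundant in slow than in fast fibres in rodents. Of 6 cardiac markers none passed 2-fold in any comparison, with summed values of 94.5, 104 and 97.2. Among them Myh6, Nppb, Myl7 and Tnni3 were below the array median on every array, so that they say little. Ankrd1 and Csrp3 are both abundant in the heart. Of 9 neutrophil markers 6 were 2-fold above Sham on the tumour array, with summed values of 86.6, 433 and 288, while Ly6g and Camp were below the array median on every array. Of 7 macrophage markers 1 was 2-fold higher on the tumour array (Cd68) and 1 lower (Adgre1), 4 of the 7 were below Sham, and the median log2 difference of the list was -0.77. The summed values of 658, 798 and 439 have the order of Cd68, which read 6.83, 8.60 and 6.45 on the log2 scale. Of 12 fast fibre markers 2 were 2-fold lower on the tumour array than in Sham, and all 12 were above the tumour array under knockdown, by a median of 0.16 on the log2 scale. Of 7 fibroblast markers 4 were 2-fold below Sham on the tumour array, led by Col1a1 (9.19-fold), as was 1 of 6 endothelial markers (Kdr, 2.05-fold), and of 5 smooth muscle markers none passed 2-fold.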

How the data were processed

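The authors deposited log2 values made from the array scans with RMA, which corrects background, normalizes across arrays and summarizes probes to 1 value per gene, on a probe mapping to Entrez genes. The submitters' processing notes name affy 1.36.1 and R 2.15.1. The set of arrays normalized together, and the genome build, were not given in the sources used here. Of 25206 genes, 23185 had 1 symbol in the platform annotation and 2021 were not listed. The fold columns of the study were not used.

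Differences and folds were computed in Python 3.11.15 (numpy 2.4.6, pandas 2.3.3), with no filter and no test, by code tested on simulated data. The number of arrays limits the precision. The 10 members, and 16 lists from textbook knowledge (173 of 176 genes measured), were chosen with earlier results of these data known, and no list is independent evidence. Genes named were the members, Foxp1, up to 4 genes past 2-fold per list and comparison, and the 3 nearest patterns of each member with a range of at least 1. Fhl2, Fhl4, Csrp1, Csrp2, Neb, Nebl, Myof, Otof, Fer1l4, Fer1l6 and Trim72 were not named by this rule, having been picked with their values known. The same holds for Myl3, Atp2a2, Myh4, Ly6g, Camp, Myh3, Mymk, Mymx, Cdh15, Pax7, Myh6, Nppb, Myl7 and Tnni3.

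Alternatives were 4 scalings (quantile, centring by array median, cyclic loess in limma 3.58.1 with R 4.3.3, and centring on 10 measured reference genes), a 1.5-fold size, leaving out dim genes, and the mean of the members. FoxO1-shRNA muscles were not analysed here.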

Additional observations from a re-analysis of the deposited data

How the results depend on the processing

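The counts of members past 2-fold were the same under the 4 scalings and without dim genes, in all 3 comparisons and both directions. At 1.5-fold, 1 member was lower in the tumour group than in Sham (Xirp2, against 0 at 2-fold), beside 10.5% of all genes, and 2 were higher in the knockdown group than in Sham (Ankrd2 and Ankrd1, against 1), beside 5.76% of all genes. The other counts at 1.5-fold equalled those at 2-fold.

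Centring on the reference genes moved the median of all genes by 0.11 (log2) for tumour against Sham and by 0.16 for knockdown against Sham. Among the 10 reference genes, B2m had the widest difference in both comparisons. It was 2.11-fold below Sham on the tumour array and 2.66-fold below on the knockdown array, so that this scaling rests partly on a gene that was not level. No member's difference past 2-fold changed sign under a scaling. Within 2-fold, the difference of Dysf between tumour and Sham and that of Fhl1 between knockdown and Sham changed sign under 2 scalings each, and that of Ankrd23 between knockdown and Sham under 3. The cause was not tested.

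The median log2 difference of the members, tumour against Sham (0.24), was 0.26 with median centring, 0.25 with quantile normalization, 0.27 with cyclic loess, 0.35 with reference genes and 0.81 as a mean. For knockdown against tumour (-0.06) these values were -0.0040, -0.0827, -0.0873, -0.0018 and -0.49, and for knockdown against Sham (0.35) they were 0.42, 0.32, 0.32, 0.51 and 0.32. No paired analysis was possible because each group has 1 pooled array, and for the same reason no replicate could be left out.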

Other observations

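Genes that mark regenerating, denervated or activated muscle did not share 1 pattern. Myog, the transcription factor myogenin, read 5.68 for Sham, 7.65 for tumour and 6.25 for knockdown on the log2 scale, in the order seen for Ankrd1 and Xirp1. The other 6 genes of the regenerating fibre list stayed within 2-fold in all 3 comparisons, and the embryonic myosin Myh3 read 2.81, 3.03 and 2.71. Myh3, Mymk and Mymx were below the array median on every array, so that they say little. The widest of these differences was that of Cdh15, 1.96-fold higher on the knockdown array than on the tumour array. Of 10 satellite cell markers, Sdc4, a heparan sulphate proteoglycan that other cells also make, stood 4.91-fold above Sham on the tumour array, and its knockdown array was 3.07-fold below that. Chodl had the opposite order, at 2.59-fold below Sham and then 2.62-fold above the tumour array, and Pax7, the defining satellite cell marker, read 4.69, 4.23 and 4.68. Chrna1, a subunit of the acetylcholine receptor that denervation induces, was highest on the knockdown array, 3.37-fold above tumour and 2.80-fold above Sham, and Gadd45a was 3.28-fold above Sham there.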
